A study of Mus musculus with 4 samples.

Results

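Arterial endothelial cells line the vessels that bring blood into the brain, upstream of the capillaries that carry most of the blood-brain barrier. They were picked out here from single-cell RNA libraries of mouse frontal cortex and midbrain with a gate on 7 genes. A cell that the authors labelled EC (endothelial) was called arterial when its unique molecular identifiers (UMIs, which count captured mRNA molecules) for Bmx, Gkn3, Sema3g and Vegfc summed to at least 3, and when it had no UMI of the venous markers Slc38a5, Lcn2 and Lrg1. Of 5753 endothelial cells among 21644 cells in all, 1076 met this rule. They were compared with 1789 reference cells, the endothelial cells of the same libraries that had no UMI of any of the 7 genes. A further 644 endothelial cells with at least 3 venous UMIs and no arterial UMI are called venous below, and 2244 fell in none of these groups.

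The study compared mice that carry human alpha-synuclein with the A53T substitution (labelled Huα-Syn(A53T), a model of synucleinopathy) with wildtype littermates. All were C57BL/6 and 6 to 9 months old. Each group was 1 library of pooled cells from 3 mice. The labels state that a genotype's 2 regions were taken from one group of animals, yet they give a mouse number of 3 only for frontal cortex, with 0 entered for midbrain. Cells were freed with a kit and protocol adapted for glia and vessels, and sequenced with 10x Genomics 3' v3 chemistry, which reads the 3' end of each mRNA. The promoter that drives the transgene is not given in the sources used here.

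In arteries, the Notch pathway sets and keeps endothelial identity. Ligands of the Delta and Jagged families on one cell activate Notch receptors on its neighbour, and the released receptor domain switches on target genes such as Hey1 and Efnb2. Arteries also build an elastic wall, while capillaries and veins hold most of the transporters that feed the brain and admit leukocytes. Along this axis, from artery through capillary to vein, gene expression in brain endothelium is known to change gradually.

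The arterial cells numbered 456 in wildtype frontal cortex, 156 in transgenic frontal cortex, 305 in wildtype midbrain and 159 in transgenic midbrain. Values per library are given in this order throughout. These were 20.4% of the endothelial cells (exact 95% interval 18.7 to 22.1), 18.1% (15.6 to 20.9), 16.4% (14.7 to 18.2) and 20.1% (17.3 to 23.04). With each cell thinned to 3000 UMIs the shares were 12.2, 9.18, 9.48 and 11.3%. With 1 library a group there is no spread between samples for such a share, and the intervals cover counting error only.

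A sum of UMIs is reached more easily in a deep cell, so the gate favours depth. Arterial cells had medians of 10253, 10933, 8834 and 10476 UMIs per cell and reference cells 6525, 6238.5, 5804 and 5534. The comparisons between states were also made with the reference cells nearest in depth, up to 2 for each arterial cell. Reference cells were too few for a choice. All were kept except in wildtype midbrain, where 610 of 673 were kept. This setting leaves the depth gap almost as it was and cannot show what depth does. The arterial cells held 5216302, 1852402, 3007621 and 1785034 UMIs in all, and levels below are counts per 1000000 UMIs (CPM) of such sums. Between 3 and 15 barcodes were shared by any pair of libraries, and none of these was arterial in both.

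The label was checked against markers. The 10 endothelial markers summed to between 20629 and 21781 CPM in arterial cells and between 19121 and 21401 in reference cells. Smooth muscle markers, which would betray muscle of the arterial wall, summed to 106, 111, 155 and 91.9 CPM in arterial and 97.3, 69.2, 136 and 114 CPM in reference cells, and pericyte markers to between 767 and 1012 and between 768 and 1062 CPM. Neuronal markers summed to between 6.16 and 44.3 CPM and astrocyte markers to between 169.9 and 392 CPM. Microglial markers were at 252, 491, 204 and 224 CPM and erythroid markers at 20.7, 1369, 27.9 and 268 CPM. Of the erythroid UMIs in transgenic frontal cortex, 1083 of 2536 came from 1 cell. Of the microglial UMIs 177 of 1317, 376 of 910, 193 of 613 and 150 of 399 came from 1 cell of each library. Midbrain cells of each endothelial state carried choroid plexus mRNA, at 1997 and 1261 CPM in arterial and 2975 and 1946 CPM in reference cells, against 10.7 and 15.7 CPM in arterial cells of frontal cortex. Nearly all of it was Ttr, at 1979 and 1245 CPM in arterial and 2953 and 1927 CPM in reference cells of midbrain. The part of these markers in the results was not tested.

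The 4 genes of the gate carry no test. Sema3g, a semaphorin that guides vessels and axons, was detected in 93.0, 91.0, 93.1 and 97.5% of the arterial cells. Gkn3, a gastrokine gene known in mouse brain as an arterial marker, was found in 60.5, 57.1, 61.3 and 52.2%, and its highest cell held 101, 53, 124 and 77 UMIs. All 4 genes were detected together in 36.8, 30.8, 28.9 and 27.0% of members. Among microglia, which should lack these genes, 4.71, 2.84, 2.16 and 1.74% of cells had a UMI of any of the 4 at median depths of 7373, 7404, 6749 and 8317.5 UMIs, and 8, 2, 3 and 0 of them reached 3.

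Leaving each gene out of its own gate gave a view of it in cells it had not chosen. Cells picked by the other 3 genes held Bmx, a tyrosine kinase of arterial endothelium, at between 208 and 263 CPM against 8.26 to 18.9 CPM in reference cells picked the same way. The same comparison gave 360 to 625 against 1.61 to 5.85 CPM for Gkn3, 297 to 386 against 48.1 to 75.4 CPM for Sema3g, and 130.1 to 187 against 2.84 to 4.83 CPM for Vegfc, a growth factor gene. The levels in the chosen cells stood above those in the reference cells in 4 of 4 libraries for each gene. Sema3g had the highest levels in such reference cells, of which 20.1 to 25.7% held a UMI. These cells lack the other 3 genes but not Sema3g, so those with at least 3 Sema3g UMIs count as arterial by the full gate.

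The gate cut through a gradient. In cells with 2 marker UMIs, just outside it, the 30 genes of an arterial identity list summed to 7204, 6797, 6457 and 6038 CPM, and in cells with 3 marker UMIs, just inside it, to 7336, 6912, 7120.0 and 6076 CPM. With no marker UMI the sum was 4982, 5035, 4651 and 5024 CPM, and with 20 or more it was 15930, 20190.4, 18789 and 18504 CPM. Capillary identity genes ran the other way, from 26368, 24134, 22431 and 20989 CPM with no marker UMI to 14468, 11876, 10520 and 11432 CPM with 20 or more. Marker UMIs grow with depth as well, and median UMIs per cell rose from between 5534 and 6525 to between 12954 and 16205.5 over the same range.

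**Figure D1:**
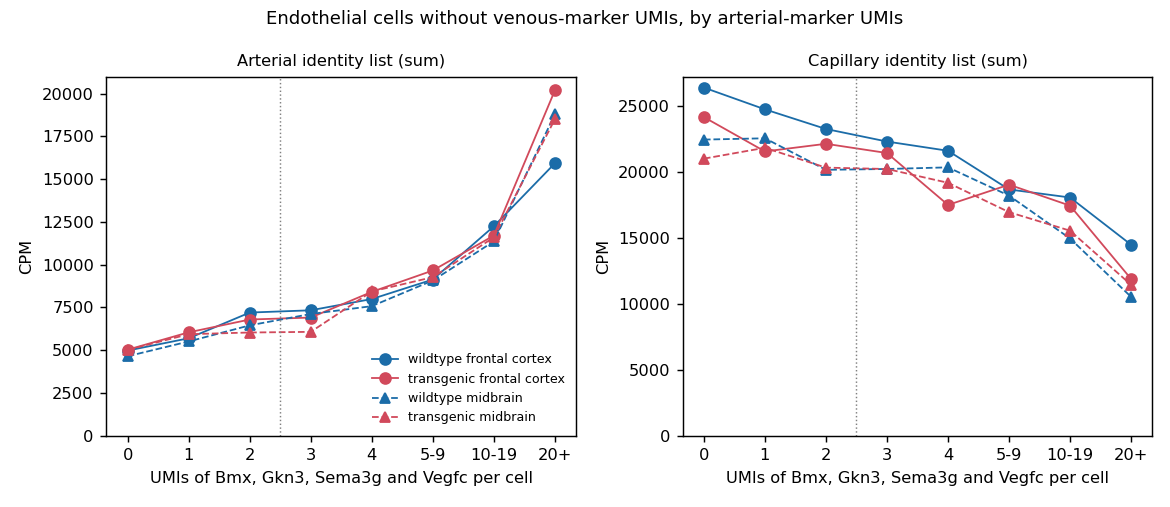
Summed levels (CPM, vertical axis) of the arterial identity list (left) and the capillary identity list (right) in endothelial cells without venous-marker UMIs, grouped by their UMIs of the 4 arterial marker genes (horizontal axis); each line is 1 library, and the dotted line marks the gate at 3 UMIs. The arterial list climbs from between 4651 and 5035 CPM to between 15930 and 20190.4 CPM without a step at the gate, and the capillary list ends lower than it starts in 4 of 4 libraries.

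Members came from several of the authors' clusters. In frontal cortex 84.6 and 84.0% of the wildtype and transgenic members lay in cluster 5, where 77.8 and 78.9% of cells passed the gate. In midbrain cluster 9 held 62.0 and 69.2% and cluster 6 another 21.6 and 18.9%. Cluster 6 of midbrain also held 65 and 39 venous cells.

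Across the genome the arterial state was marked by elastic matrix and Notch genes and by low levels of capillary and venous genes. Of 10246 genes tested with edgeR's quasi-likelihood test, each library giving 1 arterial and 1 reference sum, 1261 were higher in arterial cells and 1011 lower at an adjusted p under 0.05, which is 12.3% and 9.87% of the genes, 22.2% together. Of the genes tested, 9.54% had all 4 arterial values above all 4 reference values and 7.39% all below. The difference was at least 2 log2 units for 119 higher and 25 lower genes. With the reference cells nearest in depth 1253 and 1001 of the same genes were called. Those are nearly the same cells, so this does not speak to depth. In cells thinned to 3000 UMIs, which also lowers the counts, 713 genes were higher and 574 lower. Of the genes called against reference cells, 998 and 737 were also higher or lower than in venous cells. The gate read none of these genes, but it chose cells along the axis on which they lie, so the p-values speak only of how alike the 4 libraries were. The libraries came from 2 groups of mice.

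Several of the genes with the largest excess encode secreted matrix proteins. Mgp, matrix Gla protein, an inhibitor of calcification in the arterial wall (chromosome 6, 136872435 to 136875823, minus strand, GRCm38), was at 1187, 1825, 1554 and 1514 CPM in arterial and 25.6, 49.2, 34.2 and 25.9 CPM in reference cells. The lowest arterial library stood far above the highest reference library (log2 fold change 5.49 ± 0.07 (SE), adjusted p = 3.5e-38). Fbln5, fibulin-5, which helps assemble elastic fibres (chromosome 12, 101746565 to 101819055, minus strand), was at 88.4, 110.1, 86.1 and 106 against 0.243, 3.24, 1.28 and 0.719 CPM (6.29 ± 0.20 (SE), adjusted p = 5.9e-25). Eln, elastin itself (chromosome 5, 134702593 to 134747323, minus strand), was at 106, 134, 105 and 137 against 9.004, 8.11, 7.91 and 4.31 CPM (3.86 ± 0.12 (SE), adjusted p = 1.8e-24), and Fbln2, another fibulin (chromosome 6, 91212455 to 91272540, plus strand), at 155, 118, 161 and 146 against 9.25, 5.95, 7.91 and 11.5 CPM (4.13 ± 0.11 (SE), adjusted p = 4.3e-27). The groups did not overlap for any of these genes. In venous cells Fbln5 was at 0.323, 0, 0 and 0 CPM and Eln at 13.9, 20.5, 10.98 and 5.43 CPM.

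The 300 bases around the start of Fbln5, from 250 before to 50 after it, are shown because the gene had the largest fold change among those with UMIs in every reference library. They are from RefSeq, build GRCm38.p6, minus strand, chr12:101819070-101819369. Capitals mark TGGGAA, the core bound by the Notch effector RBPJ, which lies here on the opposite strand and reads TTCCCA, 153 bases before the start.
Fbln5: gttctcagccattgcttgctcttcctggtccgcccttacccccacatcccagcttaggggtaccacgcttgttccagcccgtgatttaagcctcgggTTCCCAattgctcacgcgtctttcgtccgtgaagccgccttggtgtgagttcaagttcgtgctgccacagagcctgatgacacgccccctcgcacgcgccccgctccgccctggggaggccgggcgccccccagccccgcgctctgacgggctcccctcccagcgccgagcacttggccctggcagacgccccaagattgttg
The hexamer is common: 28.3% of 27025 genes with such a window held it on either strand. Among 21 arterial identity genes with a window 2 did, Fbln5 and Nebl, and among 7 Notch ligands and targets 1 did, Hey2.

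Other genes of the steepest rise were nearly silent in reference cells. Cytl1, which encodes a small secreted cytokine-like protein (chromosome 5, 37735519 to 37739820, plus strand), had 270, 162, 161 and 122 UMIs in arterial cells and 0, 1, 0 and 0 in reference cells. Against a floor of 3 UMIs per library, its log2 ratio was at least 6.15, 6.13 and 4.99 in the libraries where the reference was at 0. Pi16, a peptidase inhibitor gene, had 101, 61, 64 and 46 UMIs against 0, 2, 0 and 0, and Nos1, a nitric oxide synthase best known from neurons (chromosome 5, 117781032 to 117958840, plus strand), 202, 109, 147 and 94 against 1, 4, 0 and 0. Nos3, the endothelial nitric oxide synthase, differed less, at 206, 226, 207 and 235 against 184, 167, 178 and 186 CPM (0.27 ± 0.06 (SE), adjusted p = 3.1e-04). Col18a1, the collagen from which endostatin is cut, was at 69.4 ± 11.1 against 2.31 ± 2.04 CPM (SD, n = 4) (log2 fold change 5.36, adjusted p = 3.6e-22), and Npnt, nephronectin, an integrin ligand, at 37.4 ± 4.301 against 1.198 ± 0.375 CPM (SD, n = 4) (4.801, adjusted p = 1.0e-19). Gper1, a membrane receptor for oestrogen, was at 58.1 ± 3.41 against 3.33 ± 1.79 CPM (SD, n = 4), with a log2 fold change of 3.84. Syt15, Nov and Olfml2a, which complete the 14 largest with Tmem100, had log2 fold changes of 4.02, 3.91 and 3.78.

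Of the 25 tested genes of a matrix and elastic fibre list 18 were higher and 4 lower, with a median log2 fold change of 0.76 against -0.01 for all genes tested. The lower members were Nid1, Nid2, Lama4 and Sparc. Basement membrane genes went both ways, since Lamb2, Lama5, Lamc1, Col4a1 and Col4a2 were higher. Nid1, nidogen, was at 28.4 ± 9.46 against 58.1 ± 9.79 CPM (SD, n = 4) (-1.096), while Fbn1, fibrillin-1, was at 5.94, 8.64, 13.3 and 12.9 against 0, 0, 0.5104 and 0.719 CPM. Bgn, biglycan, was at 47.7, 57.8, 28.6 and 50.98 against 5.84, 7.57, 6.38 and 3.595 CPM (2.84 ± 0.17 (SE), adjusted p = 8.5e-17). Fbln2, Eln and Bgn are also made by mural cells and fibroblasts. Smooth muscle and pericyte marker levels are given above, and the 7 fibroblast markers summed to 7.86, 13.5, 11.3 and 6.72 CPM in arterial and 5.35, 4.32, 11.7 and 5.75 CPM in reference cells. Most arterial cells held 2 or more UMIs of smooth muscle, pericyte or fibroblast markers. Leaving such cells out kept 135, 50, 126 and 67 of 456, 156, 305 and 159 arterial cells. It kept 297, 126, 338 and 134 of 611, 268, 673 and 237 reference cells. In the cells kept, the log2 fold changes were 3.902 for Fbln2 and 3.79 for Eln, against 4.13 and 3.86 in all cells.

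Each of the 3 tested Notch ligands was higher in arterial cells. Dll4, the Delta ligand of arterial endothelium (chromosome 2, 119325784 to 119335962, plus strand), was at 147, 113, 123 and 86.8 against 78.8, 70.8, 79.4 and 75.5 CPM (log2 fold change 0.68 ± 0.08 (SE), adjusted p = 9.7e-09). The library means differed, but the lowest arterial value, in transgenic midbrain, lay only just above the highest reference value. Jag1 was at 109, 141, 127 and 119 against 54.02, 68.7, 43.4 and 48.2 CPM (1.22 ± 0.09 (SE), adjusted p = 1.6e-14) and Jag2 at 277, 290.4, 277 and 330.0 against 143, 134, 129 and 171 CPM (1.03 ± 0.06 (SE), adjusted p = 8.8e-18). These 2 Jagged ligands did not overlap between the states. Dll1 was too low to be tested.

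Among the receptors Notch1 and Notch4 were higher and Notch2 was lower. Notch4, which is largely restricted to endothelium, was at 95.1, 91.2, 90.4 and 93.6 against 54.99, 57.8, 59.7 and 71.9 CPM (0.64 ± 0.08 (SE), adjusted p = 4.0e-08), and Notch1 at 307 ± 20.7 against 217 ± 16.7 CPM (SD, n = 4) (0.50 ± 0.05 (SE), adjusted p = 5.5e-10). Notch2 was low in both, at 7.09, 7.56, 7.65 and 7.28 against 11.9, 9.73, 11.995 and 10.8 CPM (-0.62 ± 0.21 (SE), adjusted p = 0.028). Notch3, the receptor of mural cells, was at 8.05, 7.56, 9.64 and 14.01 against 6.08, 5.95, 9.95 and 7.19 CPM and did not pass the test (adjusted p = 0.33).

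Of the 4 tested targets 3 were higher and 1 was lower. Hey1, a transcriptional repressor (chromosome 3, 8663359 to 8667256, minus strand), was at 319, 234, 261 and 188 against 65.7, 55.7, 66.6 and 55.4 CPM (2.08 ± 0.07 (SE), adjusted p = 6.3e-24), with 10.6, 26.2, 10.5 and 17.2 CPM in venous cells. Efnb2, ephrin-B2, the classical arterial surface marker (chromosome 8, 8617434 to 8661242, minus strand), was at 209.5, 171, 177 and 154 against 56.2, 41.1, 44.2 and 47.5 CPM (1.93 ± 0.07 (SE), adjusted p = 2.4e-22), with 13.9, 15.6, 17.97 and 14.5 CPM in venous cells. For both genes the 3 states formed 3 separate ranges, with reference cells in the middle. Nrarp, a feedback inhibitor, was at 34.9, 26.5, 40.6 and 38.1 against 18.3, 8.11, 20.9 and 20.1 CPM (1.03, adjusted p = 4.5e-08). Hes1, another repressor, went slightly the other way, at 395, 327, 464 and 469 against 481, 309.7, 494 and 564 CPM (-0.15 ± 0.05 (SE), adjusted p = 0.023), and its states overlapped. Of 12 modulators of the pathway none was higher and 2 were lower. These were the glycosyltransferases Lfng (-0.61) and Mfng (-0.36), which tune how receptors read their ligands, while Rbpj itself was at 62.1 ± 8.71 against 66.8 ± 6.12 CPM (SD, n = 4).

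**Figure D2:**
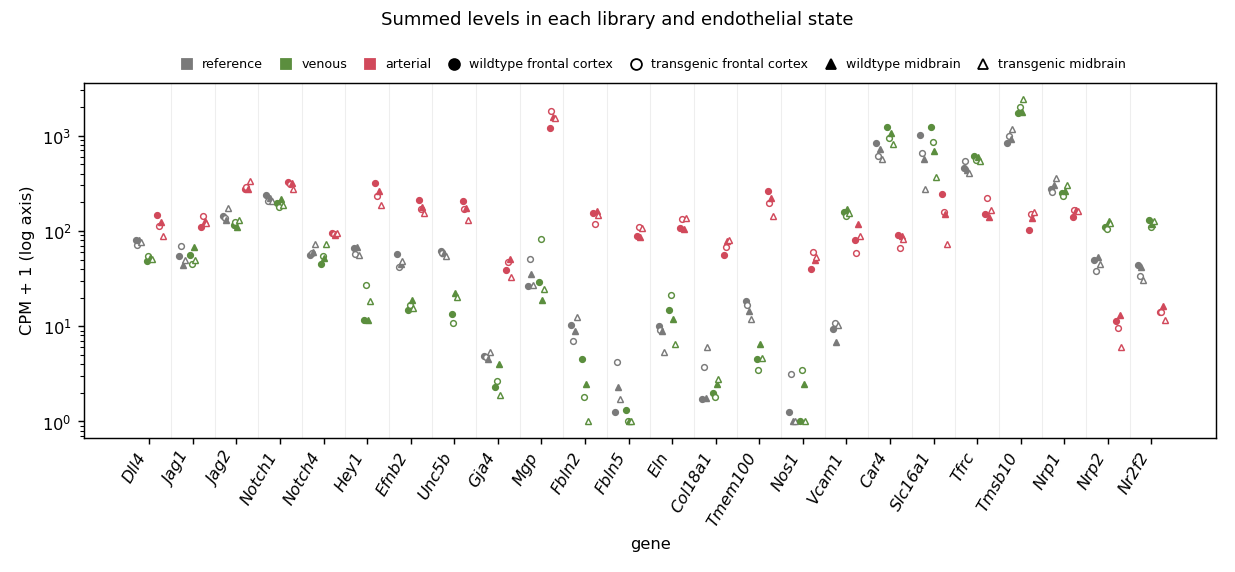
Levels of 24 named genes (CPM + 1, log axis) in reference, venous and arterial endothelial sums; each symbol is 1 library, circles for frontal cortex and triangles for midbrain, filled for wildtype and open for transgenic. Mgp, Fbln5 and Eln stand apart in arterial cells, Hey1 and Efnb2 form 3 levels with reference cells in the middle, and Car4, Tmsb10 and Nrp1 are lowest in arterial cells.

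Of the 28 tested members of the arterial identity list 27 were higher and 1 lower, with a median of 1.62. These lists were drawn up with what is known of arterial genes, so the count describes the cells chosen. Gja4, connexin 37, which joins endothelial cells to each other, was at 38.3, 45.9, 49.5 and 31.9 against 3.89, 3.78, 3.57 and 4.31 CPM (3.46 ± 0.18 (SE), adjusted p = 1.4e-18). Stmn2, a tubulin-binding protein better known from neurons, was at 382, 414, 420.3 and 459 against 45.7, 51.9, 37.3 and 36.7 CPM (3.27 ± 0.08 (SE), adjusted p = 4.9e-29). Egfl8, a secreted EGF-domain protein, had a log2 fold change of 3.73, Alpl, alkaline phosphatase, of 1.94, and Unc5b, a netrin receptor, of 1.605. The exception was Nrp1, a co-receptor for VEGF that marks arteries in the embryo, at 139, 166, 163 and 161 against 277, 257, 302 and 356 CPM (-0.92 ± 0.06 (SE), adjusted p = 1.8e-15). It was also below the venous level (-0.74). The gap junction gene Gjc1, connexin 45, was lower as well (-0.59).

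Transcription factors of the vascular list were split, with 8 higher and 5 lower of 23. Sox17, which acts upstream of Notch in arteries, was at 480.4, 509, 528 and 567 against 327, 317, 317 and 344 CPM (0.67 ± 0.05 (SE), adjusted p = 2.9e-14). Prdm16, Gata2, Sox18, Mecom and Epas1 were also higher, by between 0.55 and 0.75 log2 units. Nr2f2, the factor that keeps veins venous and represses Notch, was at 13.2, 12.96, 15.3 and 10.6 in arterial, 42.6, 32.4, 40.8 and 29.5 in reference and 129.7, 109, 118 and 126 CPM in venous cells. Its arterial level was below both others (log2 fold change -1.52 against reference, adjusted p = 6.9e-12, and -3.21 against venous cells, adjusted p = 9.7e-20). Klf2 and Klf4, which respond to blood flow, were higher by 0.20 and 0.41.

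In the TGF-beta and BMP pathway 10 of 13 tested members were higher and none was lower. Tmem100, a membrane protein downstream of the receptor ALK1, was at 261, 195, 219.8 and 143 against 17.3, 15.7, 13.5 and 10.8 CPM (3.88 ± 0.09 (SE), adjusted p = 6.7e-29). Tgfb2, a ligand, was at 393, 359.5, 368 and 351 against 153, 116, 165 and 126 CPM (1.37 ± 0.06 (SE), adjusted p = 9.9e-21), and Smad6, an inhibitor of BMP signals, at 82.8, 76.7, 81.1 and 72.3 against 39.4, 27.03, 34.2 and 27.3 CPM (1.24 ± 0.09 (SE), adjusted p = 1.5e-13). The receptor Acvrl1, ALK1, differed less (0.38, adjusted p = 2.7e-08). The receptor genes Tgfbr1 and Bmpr2 and the ligand gene Tgfb1 did not pass the test.

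Genes of vascular tone gave 10 higher and 4 lower of 19. Edn1, endothelin-1, a strong constrictor (chromosome 13, 42301476 to 42307990, plus strand), was at 567, 628, 386 and 420.2 against 206, 233, 98.01 and 97.1 CPM (1.68 ± 0.07 (SE), adjusted p = 4.9e-21). Ptgis, prostacyclin synthase, whose product widens vessels, was at 15.9, 20.5, 22.3 and 20.2 against 0.973, 0, 1.53 and 5.03 CPM (3.64 ± 0.31 (SE), adjusted p = 2.9e-12), and Ace, which makes angiotensin II, at 24.9, 25.9, 38.2 and 35.9 against 4.14, 6.49, 7.15 and 7.91 CPM (2.36 ± 0.17 (SE), adjusted p = 5.1e-14). Genes for both constriction and dilation were thus higher. Adm, adrenomedullin, a dilator, was lower at 11.5, 5.94, 6.32 and 3.92 against 41.6, 31.9, 42.6 and 48.2 CPM (-2.36 ± 0.17 (SE), adjusted p = 2.4e-14), together with Ramp2 and Ramp3, parts of its receptor, and Thbd.

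Capillary and transport genes were mostly lower. Of 20 capillary identity genes 16 were lower and 1 higher (median -0.53), and of 26 barrier transporters 18 were lower and 4 higher (median -0.43). Car4, carbonic anhydrase 4 of the capillary surface (chromosome 11, 84957786 to 84966044, plus strand), was at 89.3, 65.9, 88.4 and 80.7 against 827, 609.8, 716 and 572 CPM (-3.09 ± 0.06 (SE), adjusted p = 1.8e-31). Slc16a1, the monocarboxylate transporter MCT1, was at 241, 159, 150.3 and 71.1 against 1003, 650.3, 571 and 274 CPM (-2.001 ± 0.05 (SE), adjusted p = 1.9e-27), and the highest arterial library was below the lowest reference library. Tfrc, the transferrin receptor, was at 151, 219, 137 and 165 against 451, 545, 430.1 and 404 CPM (-1.48 ± 0.06 (SE), adjusted p = 1.6e-22), and Slc7a5, the large amino acid carrier, was lower (log2 fold change -1.29). Among the higher ones were Slc6a6 (taurine), Slc9a3r2 (a scaffold of transporters) and Slc2a1 (glucose, GLUT1). Slc2a1 was at 2497, 2428, 2443 and 2361 against 1933, 1993, 1861 and 1933 CPM (0.34 ± 0.04 (SE), adjusted p = 1.1e-08). Mfsd2a, the lipid carrier that restrains transcytosis, differed by -0.26, and Abcb1a, P-glycoprotein, by -0.17.

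A list of barrier junction genes, which holds tight and adherens junction and other cell contact genes, gave 4 higher and 4 lower of 13 tested. The higher ones were F11r, a junctional adhesion molecule of tight junctions, Jcad, Cdh5, the VE-cadherin of adherens junctions, and Pecam1, a cell contact protein. The lower ones were Jam2, Esam, Tjp1, the scaffold ZO-1 of tight junctions, and Cldn5. Cldn5, the main claudin of the barrier, was at 6503, 5440.5, 6003 and 4976 against 7419.7, 5913, 6504 and 5004 CPM (-0.11 ± 0.04 (SE), adjusted p = 0.042). Wnt genes, which maintain the barrier, gave 4 higher and 5 lower of 16, with Lef1 at a log2 fold change of -0.48. VEGF and chemokine genes gave 1 higher and 6 lower of 11, with Kdr, the main VEGF receptor, at 402, 397, 359 and 292 against 731, 591, 610.2 and 576 CPM (-0.79 ± 0.05 (SE), adjusted p = 7.9e-16). Cxcl12, a chemokine, was below reference cells (log2 fold change -0.45) but above venous cells (0.78). Beside the counts of these lists, 12.3% of all genes tested were higher and 9.87% lower.

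The 14 genes with the deepest loss included venous, capillary and less studied genes. Tmsb10, a thymosin that binds actin monomers, was at 100.3, 148, 137 and 156 against 833, 989.8, 921 and 1173 CPM (-2.87 ± 0.05 (SE), adjusted p = 1.0e-31), and at 1724, 2004, 1790.1 and 2431 CPM in venous cells. Flrt2, a guidance protein, was at 5.37, 3.78, 3.66 and 1.68 against 45.02, 25.9, 41.1 and 17.3 CPM (-3.15 ± 0.18 (SE), adjusted p = 4.2e-17), and Nrp2, the neuropilin of veins and lymphatics, at 10.4, 8.64, 11.97 and 5.04 against 47.9, 36.8, 51.8 and 43.9 CPM (-2.26 ± 0.14 (SE), adjusted p = 5.4e-16). For these 3 genes venous cells were highest, so reference cells again lay in the middle. Gpr85, Meox1, Adm and Adgrl3 had log2 fold changes of -2.703, -2.61, -2.36 and -2.35. Fam13a, Unc13c, Car14, Ttyh2, Fmo2 and Rnase4 ranged from -2.69 to -2.21. All of the 14 but Gpr85 and Meox1 differed more from venous than from reference cells.

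Venous identity genes were mixed, with 10 lower and 5 higher of 17. Vcam1, which leukocytes bind, was at 79.4, 57.2, 116 and 88.5 in arterial, 8.27, 9.73, 5.87 and 9.35 in reference and 159, 143, 169 and 155 CPM in venous cells. It was thus well above reference cells (3.49 ± 0.15 (SE), adjusted p = 6.5e-21) and below venous cells (-0.88, adjusted p = 1.2e-09). Vwf, von Willebrand factor, had the same order, at 206, 181, 226 and 164 CPM in arterial, 119, 155, 106 and 92.03 CPM in reference and 274, 388, 262 and 254 CPM in venous cells. Icam1, another leukocyte receptor, was slightly below reference cells (-0.46) and far below venous cells (-2.72). Cd9, a tetraspanin, was higher than both (1.69 and 1.697).

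Many antigen presentation and immediate early genes were also higher. Of 13 MHC class I genes 10 were higher and none lower, with H2-D1 at 1266, 1482, 1367 and 1507 against 877, 1161, 980.3 and 1147 CPM (0.44 ± 0.04 (SE), adjusted p = 6.1e-11). H2-Q6 had the largest difference (2.303), but its reads may be shared with near-identical family members such as H2-Q7. Of 24 interferon response genes 9 were higher and 1 lower, led by Ifi27l2a (1.68) and Ifitm3 (0.78). Of 20 immediate early genes 14 were higher and 2 lower, among them Fos (0.91), Nr4a1 (0.89) and Egr1 (0.64), while Jun was lower (-0.21). Of 21 genes of the actin and calcium-binding list 14 were higher and 2 lower, the thymosins Tmsb10 and Tmsb4x, with S100a6 at 81.3, 165, 59.8 and 234 against 4.62, 22.7, 14.8 and 58.96 CPM (2.58 ± 0.15 (SE), adjusted p = 3.4e-17). The share of mitochondrial UMIs, a sign of cell quality, was between 3.27 and 3.58% in arterial and between 3.77 and 4.33% in reference cells (medians).

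**Figure D3:**
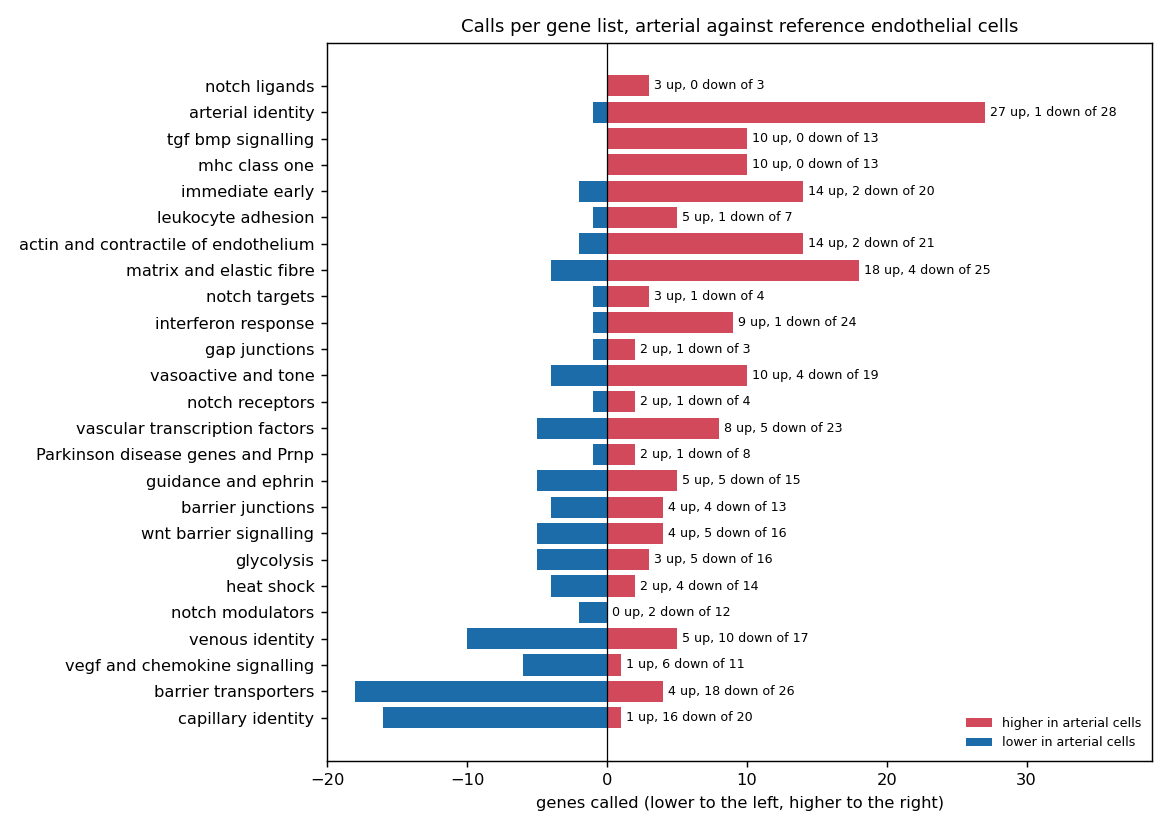
Genes called higher (red, to the right) and lower (blue, to the left) in arterial against reference cells in 25 gene lists, with the number tested beside each bar (edgeR, adjusted p under 0.05). Arterial identity has 27 of 28 genes higher, and capillary identity has 16 of 20 lower.

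Arterial cells differed among themselves, which is shown here by splitting them on Gkn3. The split and the genes named for it were chosen after their values were seen and carry no test. Gkn3 is a gene of the gate, so cells with at least 3 Gkn3 UMIs met the gate on Gkn3 alone, whereas cells with none met it through Bmx, Sema3g and Vegfc. Members with at least 3 Gkn3 UMIs numbered 177, 50, 114 and 44, and members with none 180, 67, 118 and 76. The cells with Gkn3 were deeper, with medians of 12338, 14261, 9811.5 and 11208.5 UMIs against 9275.5, 9001, 8153.5 and 10030.0. They lay in the artery clusters (5 in frontal cortex, 9 in midbrain) in at least 90.4% of cases in each library, against 40.7 to 71.6%.

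Mgp was at 2101, 3804, 3274 and 4398 CPM in cells with Gkn3 and 286, 779.7, 326 and 324 CPM in cells without. Fbln5 was at 158, 268, 183 and 342 against 26.5, 28.3, 23.9 and 16.9 CPM, and Eln at 171, 275, 198 and 358 against 40.8, 59.4, 36.3 and 58.1 CPM. The ranges did not overlap for these 3 matrix genes. Gja4 was at 63.6, 71.1, 94.6 and 54.5 against 13.2, 31.1, 11.5 and 14.5 CPM and Vcam1 at 138, 127, 234 and 276 against 8.997, 25.5, 19.5 and 18.1 CPM. Gata6, a transcription factor gene, was low, at 11.9, 13.3, 21.8 and 23.3 against 0.529, 0, 0.886 and 0 CPM, and Gja5, connexin 40 of large arteries, at 15.4, 17.8, 21.02 and 11.7 against 0, 4.25, 0.886 and 0 CPM.

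Hey1 was at 368, 241, 287 and 216 against 265, 199.5, 229.6 and 192 CPM, with log2 ratios of 0.47, 0.27, 0.32 and 0.17. Efnb2 had log2 ratios of 0.22, 0.08, 0.21 and 0.34, Dll4 of 0.60, 0.35, 0.41 and 0.27 and Sox17, a transcription factor gene, of 0.03, 0.18, 0.40 and 0.30. The ratios of Mgp were 2.88, 2.29, 3.33 and 3.76. Unc5b and Nebl, a nebulin-like muscle and actin protein, had median ratios of 0.08 and -0.05. Car4 was at 29.6, 17.8, 35.6 and 21.4 against 169.9, 94.8, 159 and 123 CPM and Ctla2a, a cathepsin inhibitor gene, at 254, 424, 128 and 142 against 729.8, 1063, 655 and 835 CPM. Both were lower in the cells with Gkn3 in 4 of 4 libraries.

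**Figure D4:**
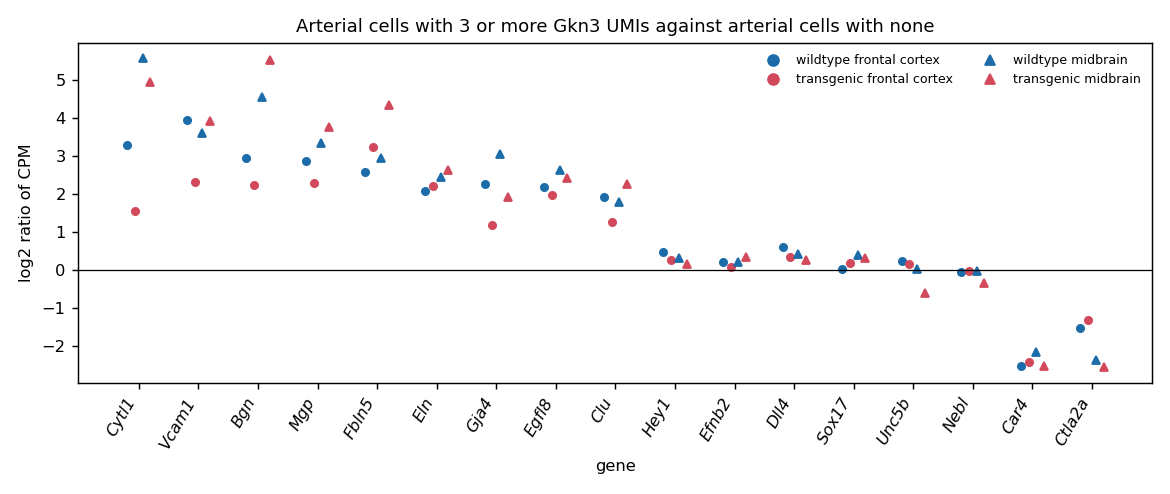
Log2 ratio of CPM (vertical axis) between arterial cells with at least 3 Gkn3 UMIs and arterial cells with none, for 17 genes; each symbol is 1 library, blue for wildtype, red for transgenic, circles for frontal cortex and triangles for midbrain. A ratio against 0 UMIs (Cytl1 in wildtype midbrain) was computed against 3 UMIs and is a lower bound. Bgn, Mgp, Fbln5 and Eln lie between 2.07 and 5.51, Hey1, Efnb2 and Sox17 between 0.03 and 0.47, and Car4 and Ctla2a below 0.

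Few genes showed an arterial difference that itself differed between regions. The test of the difference between regions called 12 of 10762 genes, 0.112%. Edn1 was the 1 gene (0.00929%) whose log2 ratio of arterial to reference cells was higher in midbrain (log2 difference 0.61 ± 0.10 (SE), adjusted p = 0.0055), and for 11 (0.102%) it was lower. Plpp3, Gm26802 and Fosb were above reference cells in both frontal cortex libraries and below them in both midbrain libraries. The level of Edn1 was lower in midbrain in both states, at 567, 628, 386 and 420.2 CPM in arterial and 206, 233, 98.01 and 97.1 CPM in reference cells. Fos had a smaller excess in midbrain (-0.86 ± 0.09 (SE), adjusted p = 1.9e-06), at 1283, 1084, 2042 and 1719.9 against 475, 436, 1305 and 1382 CPM. Both states held more Fos in midbrain. Among the 12 calls that of Fos was the one kept in each of 14 alternatives, and without wildtype frontal cortex or without wildtype midbrain 24 and 29 genes were called. Igfbp3, Cd24a, Stc1 and Plpp3 lost their calls when cells with a UMI of Plvap, Esm1 or Cd36, genes of fenestrated vessels, were left out. That step kept 663 of 673 wildtype and 235 of 237 transgenic midbrain reference cells, so these calls rested on few cells.

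Arterial cells of the regions were also compared with each other directly. Of 10346 genes 75 were higher in midbrain and 34 lower (edgeR, genotype as a block), 0.725% and 0.329% (1.05% together), and 3 of these 109 calls held in all 13 alternatives. The fit has 1 residual degree of freedom before pooling across genes. Among the alternatives, the fits with 1 library left out have no genotype block and only 1 library in a region. They thus mix the loss of the block with the loss of a library. Fosb, an immediate early gene (chromosome 7, 19302696 to 19310051, minus strand), was at 199, 191, 372 and 388 CPM (log2 difference 0.98 ± 0.09 (SE), adjusted p = 5.5e-25). Both midbrain libraries were above both frontal cortex libraries. This was not particular to arterial cells, since Fosb was at 142, 122, 406 and 479 CPM in reference and 193, 159, 444 and 424 CPM in venous cells. Enpp2, autotaxin, which is abundant in choroid plexus, was at 42.8, 58.8, 151 and 132 CPM (1.58 ± 0.12 (SE), adjusted p = 7.2e-34), and Ttr, transthyretin, the main product of choroid plexus, at 8.24, 14.6, 1979 and 1245 CPM. Enpp2 moved with the choroid plexus markers given above. In reference cells it was at 43.8, 56.2, 196 and 147 CPM, again higher in midbrain. Ttr is itself among those markers and made up nearly all of their midbrain sum, so it cannot be set beside them. The source of Enpp2 and Ttr mRNA was not tested.

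Other regional differences were less stable. Junb was at 749, 616, 1273 and 1096 CPM (0.82 ± 0.08 (SE), adjusted p = 6.7e-21), a call kept in 11 of 13 alternatives, and Fos at 1283, 1084, 2042 and 1719.9 CPM (0.69 ± 0.08 (SE), adjusted p = 8.0e-15), kept in 10. Edn1 was lower in midbrain (-0.54 ± 0.08 (SE), adjusted p = 2.5e-08), kept in 8, Slc16a1 was lower (-0.83 ± 0.11 (SE), adjusted p = 4.0e-12), kept in 9, and Ccnd2, cyclin D2, at 156, 149, 235 and 253 CPM (0.69 ± 0.10 (SE), adjusted p = 1.0e-09), was kept in 9. These 5 genes were picked after their values were seen. In reference cells each differed between regions in the same direction, with Junb at 649, 409, 1050 and 887 CPM. Ccnd2 was at 31.6, 38.4, 45.7 and 44.6 CPM there, and the reference values of the others are given above. The largest log2 differences were those of Ttr (7.44), 1500015O10Rik (4.99) and Kl (3.63), and on the lower side Hbb-bs (-2.28). Hbb-bs was at 10.9, 939, 15.3 and 131 CPM, so it was lower in midbrain in transgenic but not in wildtype cells. The naming rule sets Ttr, 1500015O10Rik, Kl and Hbb-bs aside as markers of other types, predicted genes or haemoglobin. Among the genes it leaves, Slc6a11, an astrocyte GABA transporter, was at 2.3005, 7.02, 22.6 and 18.5 CPM. Agt, Cyp26b1, Cldn10, Nnat and Nsg2 were the other higher genes it named. Fcrls, a microglial gene, was at 9.39, 21.6, 4.32 and 3.92 CPM, and the rule named Htra3, Lyz2, Gpr34, Ccl4 and Nrgn with it as lower. Several of the genes named by the rule are genes of glia or neurons. Marker sums of glia, neurons, choroid plexus and erythroid cells are given above, and their part in these differences was not tested.

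Transgenic and wildtype arterial cells could be compared only as 1 library against 1 in each region, so no test was made and intervals cover counting error. Prnp, the prion protein gene, was at 307 against 212 CPM (log2 ratio 0.53, interval 0.39 to 0.68) in frontal cortex and 279.5 against 237 CPM (log2 ratio 0.24, interval 0.07 to 0.40) in midbrain, transgenic against wildtype. Genes at least 1.5 times apart, at 20 CPM in either library, were 182 higher and 128 lower of 6909 in frontal cortex (2.63% and 1.85%) and 184 and 147 of 6899 in midbrain (2.67% and 2.13%). Of 6652 genes past the CPM floor in both regions 27 were higher and 31 lower in both, and 5 went opposite ways.

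Arterial identity genes took no common direction between genotypes. Their counting intervals left out 0 for 9 higher and 12 lower of 30 in frontal cortex (median log2 ratio 0.07) and 6 higher and 8 lower of 30 in midbrain (median -0.05). By the same rule 8.89% and 7.38% of all genes were higher and 5.79% and 6.46% lower. Hey1 was lower in transgenic cells of both regions, at 234 against 319 CPM (log2 ratio -0.44, interval -0.60 to -0.29) and 188 against 261 CPM (log2 ratio -0.47, interval -0.66 to -0.29), with log2 ratios of -0.24 and -0.27 in reference cells. Dll4 was at 113 against 147 CPM (log2 ratio -0.39, interval -0.61 to -0.16) and 86.8 against 123 CPM (log2 ratio -0.50, interval -0.78 to -0.22). Sox17 was at 509 against 480.4 CPM (log2 ratio 0.08, interval -0.03 to 0.19) and 567 against 528 CPM (log2 ratio 0.10, interval -0.01 to 0.22), and Mgp at 1825 against 1187 CPM (log2 ratio 0.62, interval 0.56 to 0.68) and 1514 against 1554 CPM (log2 ratio -0.04, interval -0.11 to 0.03). The Mgp interval left out 0 in frontal cortex and included it in midbrain, and the difference between regions was not tested.

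Genes of the circadian clock stood among those that differed the same way in both regions. The clock runs on a loop in which ARNTL and CLOCK switch on Per, Cry and Nr1d genes and the output factors Dbp, Tef and Hlf, which then repress or relay the signal. Arntl was higher in transgenic cells, at 44.3 against 23.6 CPM (log2 ratio 0.91, interval 0.49 to 1.32) in frontal cortex and 46.5 against 14.96 CPM (log2 ratio 1.64, interval 1.095 to 2.19) in midbrain. Dbp was lower, at 41.03 against 83.97 CPM (log2 ratio -1.03, interval -1.404 to -0.68) and 20.2 against 81.8 CPM (log2 ratio -2.02, interval -2.57 to -1.51), as was Hlf, at 36.2 against 70.7 CPM (log2 ratio -0.97, interval -1.37 to -0.59) and 29.7 against 60.2 CPM (log2 ratio -1.02, interval -1.49 to -0.57). Cry1, a repressor, was at 14.6 against 13.4 CPM in frontal cortex and 11.8 against 16.6 CPM in midbrain, and Cry2 at 12.96 against 14.2 and 7.84 against 18.95 CPM.

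Per1, a repressor of the loop, was at 31.3 against 84.5 CPM (log2 ratio -1.43, interval -1.85 to -1.04) and 50.98 against 86.1 CPM (log2 ratio -0.76, interval -1.12 to -0.41), and Tef at 28.1 against 56.7 CPM (log2 ratio -1.02, interval -1.47 to -0.59) and 29.7 against 46.2 CPM (log2 ratio -0.64, interval -1.12 to -0.17). Ciart, another repressor, was at 7.02 against 18.02 CPM (log2 ratio -1.36, interval -2.32 to -0.52) and 5.04 against 25.9 CPM (log2 ratio -2.36, interval -3.54 to -1.36), and Nr1d1, which represses Arntl, at 106 against 134 CPM (log2 ratio -0.33, interval -0.56 to -0.10) and 106 against 136 CPM (log2 ratio -0.36, interval -0.61 to -0.11). Clock was at 92.3 against 81.9 CPM (log2 ratio 0.17, interval -0.09 to 0.43) and 95.2 against 78.8 CPM (log2 ratio 0.27, interval -0.02 to 0.56), with intervals that include 0. In a list of clock genes put together after the data were seen, intervals left out 0 for 2 higher and 11 lower of 18 in frontal cortex and 1 higher and 12 lower of 17 in midbrain, against the shares of all genes given above. The reference cells of the same libraries held the difference too, with log2 ratios of -1.56 and -2.16 for Dbp and 1.41 and 1.18 for Arntl, on the same side as in arterial cells. The time of day at which the mice were killed is not given in the sources used here, and it cannot be told apart from genotype.

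Promoters of 3 of these genes are shown because they moved together and hold CACGTG, the E-box bound by CLOCK and ARNTL, in capitals. Each is 300 bases from RefSeq (GRCm38.p6), from 250 before to 50 after a start: Per1 at chr11:69098699-69098998, plus strand, at 1 of its 2 listed starts, Tef at chr15:81802423-81802722, plus strand, at 1 of 2, and Ciart at chr3:95882179-95882478, minus strand.
Per1: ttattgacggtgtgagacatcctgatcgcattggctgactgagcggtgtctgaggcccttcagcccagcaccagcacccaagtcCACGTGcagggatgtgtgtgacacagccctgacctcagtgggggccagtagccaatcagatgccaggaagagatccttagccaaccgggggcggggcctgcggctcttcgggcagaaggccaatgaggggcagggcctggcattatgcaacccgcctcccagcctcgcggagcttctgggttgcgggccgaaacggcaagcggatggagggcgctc
Tef: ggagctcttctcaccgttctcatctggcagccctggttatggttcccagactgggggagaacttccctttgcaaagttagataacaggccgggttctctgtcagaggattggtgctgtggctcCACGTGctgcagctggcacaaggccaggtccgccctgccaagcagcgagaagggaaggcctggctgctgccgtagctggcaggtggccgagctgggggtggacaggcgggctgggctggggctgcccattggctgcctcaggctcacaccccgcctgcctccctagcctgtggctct
Ciart: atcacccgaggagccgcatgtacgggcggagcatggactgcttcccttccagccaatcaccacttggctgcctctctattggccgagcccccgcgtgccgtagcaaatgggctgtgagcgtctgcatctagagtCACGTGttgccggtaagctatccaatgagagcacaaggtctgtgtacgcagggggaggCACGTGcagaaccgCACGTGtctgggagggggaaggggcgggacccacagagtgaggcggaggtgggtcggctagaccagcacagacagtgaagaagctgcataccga
The E-box begins 166 bases before the start in Per1, 127 before it in Tef, and 116, 58 and 44 before it in Ciart. It reads the same on both strands and occurs in 8.09% of 27025 genes with such a window, against 5 of 17 clock genes (Per1, Cry1, Tef, Ciart and Bhlhe41). Cry1 is given above, and Bhlhe41 was at 7.02 against 9.39 CPM in frontal cortex and 9.52 against 14.6 CPM in midbrain. Hlf, also lower in transgenic cells, has such a window without the E-box. A link between the E-box and these differences was not tested.

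The other genes named by rule were these. Higher in transgenic arterial cells of both regions were Tgtp2, an interferon-induced GTPase, at 24.8 against 9.39 CPM (log2 ratio 1.402, interval 0.79 to 2.01) and 29.1 against 10.3 CPM (log2 ratio 1.499, interval 0.83 to 2.19), and Zbtb16, a transcription factor induced by glucocorticoids, at 64.8 against 24.7 CPM (log2 ratio 1.39, interval 1.02 to 1.76) and 56.02 against 23.9 CPM (log2 ratio 1.23, interval 0.78 to 1.68). S100a6, a calcium-binding protein, was at 165 against 81.3 CPM (log2 ratio 1.02, interval 0.80 to 1.23) and 234 against 59.8 CPM (log2 ratio 1.96, interval 1.71 to 2.23), and in midbrain 1 transgenic cell gave 62 of its 417 UMIs. Bok, a BCL2 family member, was at 54.5 against 26.6 CPM and 47.1 against 26.3 CPM, Oas1a, an antiviral enzyme, at 25.9 against 15.1 CPM and 22.97 against 10.97 CPM, Fam212a at 45.3 against 23.2 CPM and 44.3 against 21.9 CPM, and Mfsd5 at 23.8 against 12.8 CPM and 23.5 against 10.97 CPM. Each was above its wildtype library in both regions, and for Mfsd5 the reference cells gave log2 ratios of only 0.05 and 0.05.

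Several of the lower genes respond to growth factor or stress signals. Apold1, an endothelial early-response gene, was at 356 against 1161 CPM (log2 ratio -1.704, interval -1.82 to -1.59) and 553 against 1061 CPM (log2 ratio -0.94, interval -1.04 to -0.84). Dusp6 and Spry1, brakes on ERK signalling, were at 42.1 against 111 CPM (log2 ratio -1.403, interval -1.76 to -1.06) and 45.9 against 89.1 CPM (log2 ratio -0.96, interval -1.33 to -0.59), and at 23.8 against 47.4 CPM (log2 ratio -0.995, interval -1.49 to -0.53) and 18.5 against 42.6 CPM (log2 ratio -1.203, interval -1.802 to -0.64). Atf3 was at 124 against 247 CPM (log2 ratio -0.99, interval -1.201 to -0.79) and 143 against 350.1 CPM (log2 ratio -1.29, interval -1.496 to -1.09), Maff at 27.5 against 63.5 CPM and 22.97 against 50.9 CPM, and Wee1, a cell cycle kinase, at 7.56 against 22.6 CPM and 12.9 against 25.3 CPM. Of the immediate early list, intervals left out 0 for 2 higher and 16 lower of 20 genes in frontal cortex (median -0.58) and 1 higher and 17 lower of 20 in midbrain (median -0.31). By the same rule 8.89% and 7.38% of all genes with at least 20 UMIs were higher and 5.79% and 6.46% lower. Many genes of this list are abundant, and intervals are narrower for abundant genes, so the shares are not strictly alike. Klf2 was at 2069.8 against 4185 CPM and 3368 against 4531 CPM. Reference cells of the same libraries had medians of -0.88 and -0.20 for this list. With 1 library a group, library and genotype cannot be told apart.

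**Figure D5:**
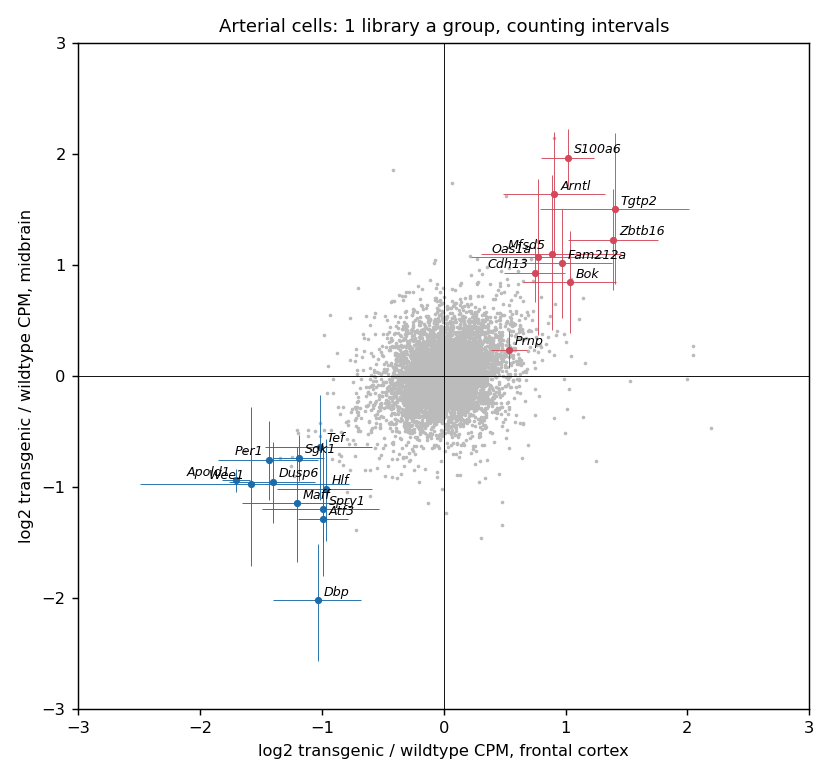
Log2 ratio of transgenic to wildtype CPM in arterial cells of frontal cortex (horizontal) and midbrain (vertical); grey points are 6648 genes at 20 CPM or more in both regions (4 more lie outside the axes), and coloured points are the 16 genes named by rule with Per1, Tef, Prnp, Sgk1 and Cdh13, with 95% counting intervals. Arntl lies in the upper right, and Dbp, Hlf, Per1 and Tef in the lower left.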

How the data were processed

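Single-cell UMI counts and a table of cell labels were used as deposited for 4 libraries, 1 for each genotype and region, each pooled from 3 mice. Per the submitters' processing notes the authors used Cell Ranger 3.0.0, Seurat 3.1.5 and the mm10 build. The deposited values are whole-number counts per gene and cell, with cell types and clusters from the authors' table, which were not rebuilt, and the percent of mitochondrial UMIs in each cell as the authors deposited it. The filters behind the cells of that table are not given in the sources used here, and no doublet caller was run. The matrices held 19040 genes in both regions.

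Counts were summed over the cells of each state in each library. Sums were tested with edgeR 4.0.16 (quasi-likelihood, TMM, filterByExpr, R 4.3.3) with Benjamini-Hochberg adjustment over all genes tested and a threshold of 0.05, with library as a block between states and genotype as a block between regions. The arterial and reference sums of a library come from the same mice and run, which is where their pairing comes from. The 7 genes of the gate were left out of all tests. Nothing says the libraries are separate preparations beyond their labels, so p-values measure only the spread between these libraries. Genotype had 1 library a group and no test. Log2 ratios of CPM are given with exact 95% counting intervals (Clopper-Pearson, given the total of the 2 counts). Such intervals cover counting error only. DESeq2 1.42.0 was an alternative, and Python 3.11.15 with pandas 2.3.3 and scipy 1.17.1 made the tables. The fits were checked on simulated counts.

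The text names the 14 largest and 14 smallest fold changes between states among called genes with the same direction in 4 of 4 libraries and at least 20 CPM in 1 state, 6 each way between regions, and up to 8 each way between genotypes among genes past 1.5 times in both regions with 30 UMIs. It also names up to 5 members of each of 25 gene lists. Haemoglobin, mitochondrial, ribosomal and predicted genes and markers of other types were left out of that choice. The members and lists were chosen with earlier results of these data known. The clock and glucocorticoid lists, the split by Gkn3 and comparisons with venous cells were added after values were seen. Other genes named to show a gene pair, a family or a contrast were also picked after their values were seen. MHC genes share sequence, so the split of reads among them is uncertain. Coordinates are from the GRCm38 annotation given with the reference. A check of the transgene and 1 member of the transporter list are not reported here.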

Additional observations from a re-analysis of the deposited data

Results flagged for a closer look

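For 12 genes the difference between arterial and reference cells differed between regions by the test of that difference (edgeR, midbrain minus frontal cortex, on the log2 scale). Edn1, endothelin-1, had the larger arterial excess in midbrain, by 0.61. Fos and Fosb, immediate early genes, differed by -0.86 and -0.72. S100a6, a calcium-binding protein, differed by -1.36 and the long noncoding RNA gene Gm26802 by -1.29.

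Igfbp3, an insulin-like growth factor binding protein, differed by -4.45, Cd24a, a surface protein, by -3.64, Stc1, stanniocalcin, by -2.90, and Plpp3, a lipid phosphatase, by -1.33. Reference cells carried Igfbp3 at 3.41, 2.703, 64.3 and 39.5 CPM over the 4 libraries in the order of the report, against 66.7, 95.01, 55.5 and 62.7 CPM in arterial cells. Markers of fenestrated endothelium summed to 57.4 and 50.3 CPM in midbrain reference cells and 13.3 and 1.12 CPM in midbrain arterial cells. In wildtype midbrain 39 of the 40 arterial UMIs of these markers came from 1 cell. Few reference cells held such a UMI, since leaving them out kept 663 of 673 in wildtype and 235 of 237 in transgenic midbrain. Without cells holding a UMI of Plvap, Esm1 or Cd36 these 4 differences were -0.28, -1.26, -0.90 and -0.22, and none passed the test (adjusted p = 0.9998 for each, edgeR).

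The haemoglobin genes Hbb-bs, Hba-a1 and Hba-a2 differed by -2.33, -1.79 and -1.58. These genes are themselves among the erythroid markers, so the marker sum is no separate check. The sum was 1369 CPM in arterial and 333 CPM in reference cells of transgenic frontal cortex, and Hbb-bs alone was at 939 and 203 CPM. Of the 2536 arterial UMIs of that sum, 1083 came from 1 cell.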

How the results depend on the processing

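The 28 genes named between states kept their calls in all settings in which they were tested (26 of 26 without mural-marked cells, 25 of 25 in thinned cells). With venous cells as the reference, the log2 fold change reversed for Hes1 (0.087), Cxcl12 (0.78), Angpt2 (0.13) and Vcam1 (-0.88). Genes higher and lower between states numbered 727 and 498 with DESeq2, 730 and 599 without cells holding 2 or more mural marker UMIs, and 713 and 574 in cells thinned to 3000 UMIs. Without the replicate block, so ignoring the pairing, they numbered 836 and 558. Leaving out 1 library gave 972 to 1315 higher and 773 to 1026 lower. For the difference between regions in the arterial effect, 24 genes were called without the filter on low counts, and 14 to 29 with 1 library left out. Genes higher and lower in midbrain arterial cells numbered 23 and 9 with a gate of 2 UMIs, 14 and 7 without mitochondrial and ribosomal genes, 9 and 4 without mural-marked cells, 17 and 7 with a quality filter, 19 and 7 with DESeq2 size factors and 31 and 10 in thinned cells. Without the replicate block they were 5 and 0 (edgeR; at an unadjusted p under 0.05, 203 and 132). With 1 library left out, which assumes that the lone library of a region varies like the others, they ran from 5 to 56 and from 1 to 38. For genotype in frontal cortex, higher and lower genes numbered 688 and 585 in thinned cells, 794 and 677 without mural-marked cells and 2475 and 938 with no floor on CPM, and TMM gave 116 higher. In midbrain they numbered 709 and 638, 573 and 569, and 1814 and 1323, with 296 and 223 by the mean of per-cell CPM. The arterial share of endothelial cells, per library, was 12.2, 9.18, 9.48 and 11.3% in thinned cells, 24.96, 22.2, 19.7 and 23.1% with a gate of 2 UMIs, and 15.8, 13.4, 11.8 and 16.0% with a gate of 5. Without mural-marked cells it was 15.3 and 14.3% in frontal cortex, and with venous genes unused 23.97, 21.5 and 18.9% in all but transgenic midbrain. Over all other results, 2570 values kept their direction and side, 153 no longer passed, 8 newly passed and 19 moved. The causes were not tested. Sums with few UMIs limit low genes, and genotype has no replicate.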

Other observations

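Of all 10246 genes tested between arterial and reference cells, 12.3% were higher and 9.87% lower, and several of the short lists below are near these shares. Guidance genes differed both ways between arterial and reference cells, with 5 higher and 5 lower of 15 tested. Sema3f, a repulsive semaphorin, was higher by 2.27 log2 units and Ntn4, a netrin of basement membranes, by 1.49, while Sema6a and Robo4, an endothelial roundabout receptor, were lower (log2 fold changes -1.29 and -0.29). Of 7 tested leukocyte adhesion genes 5 were higher and 1 lower, with Mcam higher by 1.64. Of 3 gap junction genes 2 were higher and 1 lower. Heat shock genes gave 2 higher and 4 lower of 14, and Hspa1a was among the lower ones (-0.16). Glycolysis genes gave 3 higher and 5 lower of 16. A list of genes linked to Parkinson disease, to which the prion protein gene Prnp had been added, gave 2 higher, Uchl1 (1.55) and Pink1 (0.19), and 1 lower of 8, which was Prnp itself (-0.42).

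Genes known to respond to glucocorticoids, listed after the data were seen, had counting intervals that left out 0 in transgenic against wildtype arterial cells for 4 higher and 9 lower of 15 in frontal cortex (median log2 ratio -0.60) and 2 higher and 9 lower of 15 in midbrain (median -0.49), with medians of -0.25 and -0.09 in reference cells. Zbtb16 of this list was higher and Sgk1 lower, at 117 against 266 CPM (log2 ratio -1.19, interval -1.405 to -0.98) and 143 against 239 CPM (log2 ratio -0.74, interval -0.95 to -0.53). Interferon response genes gave 11 higher and 0 lower of 24 and 7 higher and 0 lower of 24, and MHC class I genes 7 higher and 0 lower of 13 and 6 higher and 0 lower of 13, while 8.89% and 7.38% of all genes were higher and 5.79% and 6.46% lower. Median log2 ratios of the interferon list were 0.23 and 0.07 in arterial and 0.35 and 0.11 in reference cells of the same libraries. Those of the MHC class I list were 0.16 and 0.14 in arterial and 0.40 and 0.10 in reference cells. All 4 gap junction genes were lower in midbrain by this rule (median -0.52, against 0.27 in reference cells), and in frontal cortex 1 was higher and none was lower.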
